A study of Mus musculus with 165 samples.

Results

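A set of 10 genes of blood vessels and of the blood-brain barrier was followed from young adulthood to old age in the brain and the liver of the same mice. They were Cldn5, Slc2a1, Abcb1a, Pecam1, Vwf, Mfsd2a, Flt1, Kdr, Slco1c1 and Sox17. They were taken as the identifiers of the count tables that map to these 10 symbols, which gave 10 of the 55471 identifiers in each table. This mapping used no measured value, but the 10 genes were chosen with earlier results of these data known. All 10 passed the filter on low counts in the brain, and 9 of 10 passed it in the liver, where Slco1c1 was near 0 and was not tested.

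The mice were male C57BL/6J/Ukj, an inbred laboratory strain, and were grouped by age, with no treatment or allele named in the labels. Bulk RNA was sequenced from brain and liver at 3, 9, 15, 24 and 28 months, with 15, 16, 16, 17 and 18 brains and with 16, 16, 16, 17 and 18 livers. Each library came from 1 mouse, 82 mice gave both tissues, and the libraries were made in 3 preparations (prep 1, 2 and 3) that each held all ages. The p-values therefore measure the spread between mice of 1 strain and sex. Whole tissue was used. The number of endothelial cells, their RNA per cell and RNA of other cells therefore cannot be told apart in the values that follow.

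The endothelium lines every blood vessel, and in the brain it forms a barrier. Claudin-5, encoded by Cldn5, seals the junctions between neighbouring cells, and sets of transporters bring nutrients in and pump foreign compounds out. Slc2a1 encodes the glucose carrier GLUT1, Mfsd2a a carrier of lysophosphatidylcholine with omega-3 fatty acids that also restrains vesicle transport, Slco1c1 a carrier of thyroid hormone, and Abcb1a the efflux pump P-glycoprotein. Pecam1 (CD31) and Vwf (von Willebrand factor) mark endothelium in most organs, Flt1 and Kdr encode the VEGF receptors 1 and 2, and Sox17 encodes a transcription factor of arterial endothelium. The liver sinusoid is lined by a fenestrated endothelium without such a barrier. Hepatocytes also make Mfsd2a and Abcb1a, and astrocytes and choroid plexus also make Slco1c1.

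The promoters of Slc2a1 and Kdr, which changed in opposite directions in the ageing brain, are shown beside those of Flt1, the other VEGF receptor, and Cldn5, the junction gene. Each is the 250 bases before the start of the gene from RefSeq (GRCm38.p6), written 5′ to 3′ on the strand of the gene, and 7 of the 10 genes had an entry. Capitals mark the motifs found among GGGCGG (the GC box), AGGAAG (bound by ETS factors), ACAAAG (SOX factors), CTTTGA (TCF/LEF factors) and TATAAA, searched on both strands, so that CCGCCC is the GC box read from the other strand.
Slc2a1, chr4:119108495-119108744, plus strand: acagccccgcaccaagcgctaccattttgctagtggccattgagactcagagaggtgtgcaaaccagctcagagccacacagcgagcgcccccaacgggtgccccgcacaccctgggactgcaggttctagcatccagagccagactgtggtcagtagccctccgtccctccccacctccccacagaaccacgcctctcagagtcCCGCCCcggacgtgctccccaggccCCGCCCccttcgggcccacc
Kdr, chr5:75978456-75978705, minus strand: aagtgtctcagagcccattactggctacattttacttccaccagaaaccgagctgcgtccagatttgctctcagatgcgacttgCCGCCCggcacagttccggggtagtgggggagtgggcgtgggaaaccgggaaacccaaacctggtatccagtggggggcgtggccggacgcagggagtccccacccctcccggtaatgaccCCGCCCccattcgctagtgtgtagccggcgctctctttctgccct
Flt1, chr5:147726012-147726261, minus strand: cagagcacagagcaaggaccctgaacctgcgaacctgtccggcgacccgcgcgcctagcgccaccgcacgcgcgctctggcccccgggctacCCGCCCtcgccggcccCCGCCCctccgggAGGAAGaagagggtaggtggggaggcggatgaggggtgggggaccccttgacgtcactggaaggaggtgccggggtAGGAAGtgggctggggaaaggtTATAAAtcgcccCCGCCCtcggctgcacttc
Cldn5, chr16:18776597-18776846, plus strand: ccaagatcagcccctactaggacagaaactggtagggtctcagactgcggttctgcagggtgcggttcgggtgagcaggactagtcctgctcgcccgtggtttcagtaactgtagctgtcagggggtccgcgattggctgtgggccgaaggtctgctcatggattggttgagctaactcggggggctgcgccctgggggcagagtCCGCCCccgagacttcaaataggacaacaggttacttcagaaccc
All 4 held the GC box, as did 32.7% of 32851 mouse promoters of this length. Of the other members among the 7 with a promoter entry, Mfsd2a and Slco1c1 held none, and Abcb1a is not counted for the reason given next. CTTTGA stood before Mfsd2a, and ACAAAG and AGGAAG before Slco1c1. The RefSeq window of Abcb1a (chr5:8566841-8567090) does not adjoin the start of that gene in the GENCODE annotation given below, and its matches are not described. The GC box stood 45 and 20 bases before the RefSeq start of Slc2a1, 166 and 45 before Kdr, 158, 142 and 19 before Flt1, and 45 before Cldn5. The GENCODE start of Slc2a1 given below (119108711) lies inside its window, ahead of the match at 20. Flt1 alone among these 4 held AGGAAG, at 129 and 53 bases before the start, and TATAAA, at 31, which occurred in 29.5% and 12.4% of all promoters. No match to ACAAAG or CTTTGA stood in these 4 windows, and these occurred in 16.5% and 13.8% of all promoters. GC content was 66.4% for Slc2a1, 61.6% for Kdr, 70.4% for Flt1 and 59.6% for Cldn5. These matches describe the letters only, and no binding was measured.

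In the mouse annotation (GRCm38, GENCODE vM21) Cldn5 is a gene of 1 exon at chr16:18776847-18778262, Slc2a1 lies at chr4:119108711-119137983, Kdr at chr5:75932827-75978458 and Flt1 at chr5:147561604-147726011. Abcb1a lies at chr5:8660077-8748575, next to its paralogue Abcb1b at chr5:8798147-8866315. Of the 5404 windows of 100 bases in Abcb1a exons, 488 (9.03%) also occurred in Abcb1b, so the split of reads from these stretches between the paralogues is uncertain. Mfsd2a lies at chr4:122946850-122961188, Pecam1 at chr11:106654217-106750628, Vwf at chr6:125546774-125686679, Slco1c1 at chr6:141524368-141570177 and Sox17 at chr1:4490931-4497354. Exons of Slc2a1, Abcb1a, Abcb1b and Sox17 overlap a gene on the opposite strand by 105, 553, 143 and 804 bases. The strand setting of the counting is not given in the sources used here, so reads of those partners could be included.

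Brain libraries held 11.5 M to 73.4 M counts (median 37.6 M) and liver libraries 5.82 M to 57.5 M (median 32.9 M). Summed neuron markers (4 genes) were between 1967 and 5444.6 CPM (counts scaled to 1000000 per library) in the brains, and summed hepatocyte markers (6 genes) had medians of 92706 CPM at 3 months and 99924 CPM at 28 months in the livers, so each tissue carried the markers of its label. Several libraries stood apart. The brain of the 28-month mouse 15 was the shallowest (11.5 M counts), had a median correlation of 0.852 with the other brains, and held 725 CPM of red cell genes, 1967 CPM of neuron genes and 132 CPM of junction genes. In the other brains these sums were 29.9 to 459 CPM, 3935 to 5444.6 CPM and 250.4 to 430.0 CPM. The brain of the 24-month mouse 13 followed, with a median correlation of 0.941. Choroid plexus markers (9 genes) were highest, at 4541 to 6636 CPM, in 4 brains (3 months mouse 5, 15 months mouse 14, 24 months mouse 8 and 28 months mouse 12). The next were the 28-month mouse 14 (3088 CPM) and the 3-month mice 15 (2801 CPM) and 4 (1437 CPM), against medians of 193 CPM at 3 months and 120.2 CPM at 28 months. In the liver the 24-month mouse 13 (median correlation 0.915) and the 28-month mouse 9 (0.922) were least like the others. Results that rest on such a library are given with and without it, except for fits with the clock gene score described at the end.

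Compared per kilobase of exon, Cldn5, Slc2a1, Slco1c1 and Mfsd2a had the highest levels in the brain, and Kdr, Mfsd2a and Cldn5 in the liver. Median levels over all brains, in CPM per kilobase, were 33.3 for Cldn5, 23.9 for Slc2a1, 10.5 for Slco1c1, 7.08 for Mfsd2a, 6.25 for Flt1, 5.74 for Abcb1a, 3.53 for Pecam1, 2.13 for Kdr, 1.85 for Sox17 and 1.29 for Vwf. In the liver they were 7.28 for Kdr, 7.21 for Mfsd2a, 6.86 for Cldn5, 4.12 for Pecam1, 3.84 for Slc2a1, 1.23 for Flt1, 0.627 for Sox17, 0.555 for Abcb1a, 0.410 for Vwf and 0.00845 for Slco1c1. Neighbours in these orders such as Kdr, Mfsd2a and Cldn5 in the liver lay within the spread of single mice. At 3 months, in 1 edgeR quasi-likelihood fit over both tissues (14035 genes, of which 90.1% differed between the tissues at an adjusted p under 0.05 and 47% were higher in the brain), all 9 members tested differed. In that fit Abcb1a was 8.52-fold higher in the brain (log2 difference 3.09), followed by Slc2a1 (2.11), Flt1 (1.71), Cldn5 (1.67), Vwf (1.00) and Sox17 (0.84). The CPM levels set the tissues further apart for these genes. Abcb1a had 3-month means of 30.2 CPM (brain) and 2.31 CPM (liver), and Slc2a1 of 79.9 and 12.1 CPM. Kdr differed by -2.31 on the log2 scale, Pecam1 by -0.92 and Mfsd2a by -0.91, which is lower in the brain in that fit. The CPM levels set the tissues less far apart for these genes. Pecam1 had 3-month means of 20.7 CPM (brain) and 25.8 CPM (liver). For Mfsd2a the means were 17.1 and 21.6 CPM, and the medians 16.8 CPM in either tissue. The sizes therefore hold for the scaling of that fit over both tissues, and the part of this scaling in them was not tested. The call of all 9 was kept with the mouse as a block. The 9 members passed the filter in both tissues, and Slco1c1 is described by its counts: 70 of the 83 livers held 3 counts or fewer and the highest held 7.

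**Figure D1:**
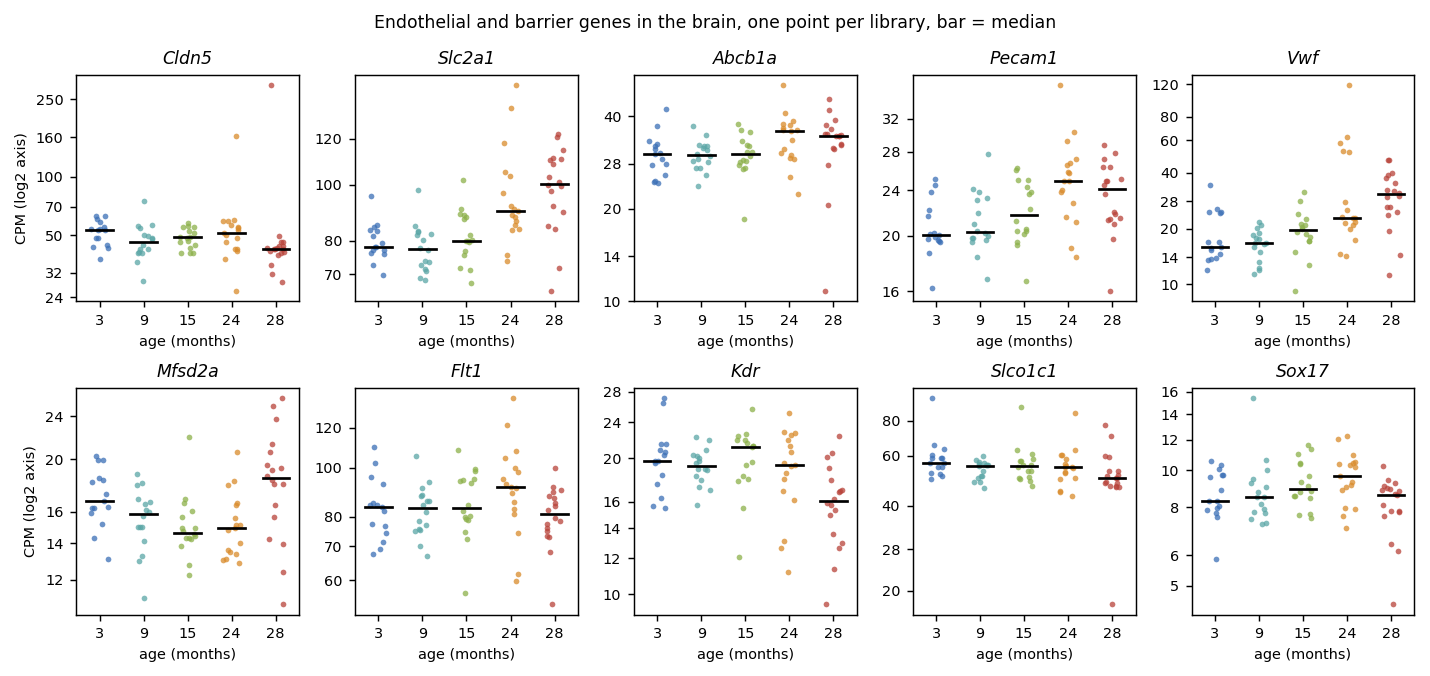
Levels of the 10 genes in the brain, in CPM on a log2 axis, by age in months, with 1 point per mouse and the median of each age as a bar. Slc2a1, Pecam1 and Vwf sit higher at 24 and 28 months and Kdr lower at 28 months, and all of the age ranges overlap; the Cldn5 point at 297 CPM is the 28-month mouse 15.

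Among the carriers of the barrier, the glucose carrier Slc2a1 rose in the brain. At 3 months the 15 brains held 69.8 to 95.6 CPM with a median of 78.1. At 28 months the 18 brains held 65.5 to 122 CPM with a median of 100.4, and 12 of 18 lay above the highest 3-month brain. The 24-month brains were already high in part, from 73.7 to 149 CPM with a median of 90.1, with 6 of 17 above that bound, while the medians at 9 and 15 months (77.4 and 80.02 CPM) were near the 3-month one. The log2 fold change was 0.28 ± 0.07 (SE) at 24 months (adjusted p = 0.00417) and 0.31 ± 0.07 at 28 months (1.24-fold, adjusted p = 0.000372, edgeR quasi-likelihood test over all 18711 genes). At 28 months 28.3% of all genes tested passed this threshold, 16.3% higher and 12% lower. Slc2a1 also passed it in each of 12 alternative analyses, with changes between 0.27 and 0.33, and was higher in 3 of 3 preps.

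The lipid carrier Mfsd2a differed over the 5 ages in the brain, with its lowest medians at 15 and 24 months. Its brain medians at 3, 9, 15, 24 and 28 months were 16.8, 15.8, 14.6, 14.9 and 18.5 CPM, and the 28-month mice ranged most widely, from 10.8 to 25.9 CPM with a median of 18.5, against 13.1 to 20.3 CPM with a median of 16.8 at 3 months. The change from 3 to 28 months was 0.10 ± 0.08 (SE, log2, adjusted p = 0.351) and that from 24 to 28 months 0.27 (adjusted p = 0.0654), so neither passed, while the joint test of the 5 ages did (adjusted p = 0.0125), though not with the clock gene score described at the end (adjusted p = 0.108). The thyroid hormone carrier Slco1c1 had brain medians of 56.5, 55.5, 55.1, 54.7 and 50.3 CPM. Its highest brains at 3, 15, 24 and 28 months (96.1, 89.3, 84.8 and 77.5 CPM) were the 4 brains highest in choroid plexus markers, and its lowest, 17.9 CPM, was the 28-month mouse 15. From 3 to 28 months Slco1c1 changed by -0.19 ± 0.08 (SE, log2, adjusted p = 0.0754). Without the 4 brains highest in choroid plexus markers the change was -0.18 and passed (adjusted p = 0.0411), as it did without 1 mouse of 28 months (12 or 14), where the adjusted p over single libraries left out ran from 0.0207 to 0.216. It was -0.03 (adjusted p = 0.834) with the clock gene score and -0.14 (adjusted p = 0.127) without the 28-month mouse 15. The part of choroid plexus tissue in these values was not tested.

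The efflux pump gene Abcb1a did not pass the test at any age in the brain in the edgeR fit used throughout. It ran from 24.3 to 42.2 CPM with a median of 30.2 at 3 months, 22.3 to 50.7 CPM with a median of 36.0 at 24 months and 10.8 to 45.5 CPM with a median of 34.6 at 28 months, where the lowest value was again mouse 15. Its change at 28 months was 0.14 ± 0.09 (SE, log2, adjusted p = 0.285). It passed in 2 of 12 alternatives, at 0.18 with voom (adjusted p = 0.0364) and at 0.29 with the clock gene score described at the end (adjusted p = 0.0219). The neighbouring paralogue Abcb1b was lower in level and rose: 2.91 to 4.63 CPM with a median of 3.93 at 3 months and 1.26 to 6.43 CPM with a median of 5.38 at 28 months, with 14 of 18 brains above the highest 3-month brain and a change of 0.44 ± 0.08 (adjusted p = 3.6e-05). The split of reads from the stretches they share is uncertain.

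The tight junction gene Cldn5 had a brain change from 3 to 28 months whose direction rests on 1 library. At 3 months it ran from 37.5 to 62.9 CPM with a median of 53.4, and at 28 months from 28.8 to 297 CPM with a median of 42.6. Only 1 of the 18 brains of 28 months lay above the 3-month median, and that was mouse 15 with 297 CPM. With this library the mean was 55.5 ± 60.6 CPM (SD, n = 18) and the change from 3 months was 0.06 ± 0.19 (SE, log2, adjusted p = 0.834). Without it the mean was 41.2 ± 5.19 CPM (SD, n = 17), against 51.9 ± 7.61 CPM (SD, n = 15) at 3 months, and the change was -0.34 ± 0.11 (edgeR, adjusted p = 0.0170). At 24 months the highest value, 162 CPM, was mouse 13, the other brain least like the rest, and the median was 51.1 CPM. Of the other junction genes on the list (11 genes, all tested), 0 were higher and 3 lower at 28 months (28.3% of all genes called), with a median change of -0.13 against 0.01 over all genes. They included Ocln (occludin, -0.27 ± 0.10, adjusted p = 0.0385) and Jam2 (a junctional adhesion molecule, -0.20 ± 0.06, adjusted p = 0.0121). This count moved between 1 and 4 when single libraries were left out, and 7 libraries moved it by more than 1.5 times (3 months mice 8, 10, 11 and 16, and 28 months mice 3, 8 and 10).

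Both general endothelial markers rose. Vwf ran from 12.0 to 34.4 CPM with a median of 15.9 at 3 months, 11.4 to 21.8 CPM with a median of 16.8 at 9 months and 9.21 to 31.4 CPM with a median of 19.5 at 15 months. It then ran from 14.3 to 119 CPM with a median of 22.9 at 24 months and 11.2 to 47.0 CPM with a median of 30.7 at 28 months. The highest brain at 24 months, mouse 8, was one of the 4 highest in choroid plexus markers. The change of Vwf was 0.93 ± 0.20 (SE, log2, 1.91-fold, adjusted p = 0.000633) at 24 months and 0.69 ± 0.20 (1.61-fold, adjusted p = 0.00546) at 28 months. Without mouse 8 the 24-month change was 0.67 (adjusted p = 0.00447) and the 24-month mean went from 35.0 ± 26.8 to 29.8 ± 16.2 CPM (SD). With a score of 20 general endothelial genes (mean z-score) in the model of all mice, the 24-month change was 0.51 (adjusted p = 0.0138). The rise from 15 to 24 months (0.84 ± 0.20, adjusted p = 0.0131) did not pass without that mouse (0.55, adjusted p = 0.125).

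Pecam1, the cell adhesion molecule CD31, moved less and within a narrower spread. It ran from 16.2 to 25.1 CPM with a median of 20.03 at 3 months, 18.4 to 36.7 CPM with a median of 24.9 at 24 months and 16.0 to 28.8 CPM with a median of 24.1 at 28 months, with 8 of 17 and 6 of 18 brains above the highest 3-month brain. The change was 0.28 ± 0.07 (SE, log2, adjusted p = 0.00389) at 24 months and 0.19 ± 0.07 (adjusted p = 0.0360) at 28 months. The 24-month change was 0.14 (adjusted p = 0.0128) with the same endothelial score in the model. The 28-month call was lost without any 1 of 7 libraries (3 months mice 7, 12 and 14, and 28 months mice 2, 6, 12 and 14), where the adjusted p reached at most 0.0723, and without the 4 brains highest in choroid plexus markers (adjusted p = 0.0608).

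Of the VEGF receptors, Kdr, the main signalling one, fell in the brain. It ran from 15.5 to 27.1 CPM with a median of 19.7 at 3 months and 9.51 to 22.3 CPM with a median of 16.1 at 28 months, when 7 of 18 brains lay below the lowest 3-month brain and 3 lay above the 3-month median. The change was -0.31 ± 0.09 (SE, log2, 0.804-fold, adjusted p = 0.00503), and it lay between -0.35 and -0.27 when single libraries were left out. With a score of circadian clock genes as a covariate, described at the end, it was -0.18 and did not pass (adjusted p = 0.139). Flt1, which binds VEGF with little signalling, had brain medians of 83.5, 83.2, 83.2, 91.8 and 81.0 CPM and a change at 28 months of -0.05 ± 0.08 (adjusted p = 0.638). Whether Kdr and Flt1 changed differently from each other was not tested. Vegfc changed by -0.43 ± 0.10 (edgeR, adjusted p = 0.00105). It alone was called among the ligands and coreceptors on the list (10 genes tested), against 28.3% of all genes. This count was 1 to 3 without single libraries, and 13 of them moved it by more than 1.5 times (24 months mouse 8, 3 months mice 8, 9, 10, 11 and 15, and 28 months mice 2, 6, 8, 9, 10, 15 and 18). It was 3 without the 2 brains least like the others. The transcription factor Sox17 had brain medians of 8.32, 8.53, 8.96, 9.64 and 8.62 CPM and a change of -0.09 ± 0.08 (adjusted p = 0.430).

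Over the 7 pairs of ages, calls among the members came late in the brain. No member was called from 3 to 9, 3 to 15 or 9 to 15 months with edgeR, where 0.315%, 0.871% and 0% of all genes were (between 9 and 15 months 532 genes reached 0.05 without adjustment). From 3 to 24 months 3 of 10 were called, all higher (Slc2a1, Pecam1 and Vwf), against 10.1% of all genes, 6.19% higher. From 3 to 28 months 4 of 10 were called, 3 higher and Kdr lower, against 28.3% of all genes, 16.3% higher and 12% lower. The median change of the 10 was 0.08 against 0.01 over all genes. Vwf alone was called from 15 to 24 months (0.732% of all genes) and no member from 24 to 28 months (1.09% of all genes). With the ages tested together, 5 of 10 were called, the 4 named and Mfsd2a, against 20.6% of all genes. None of the 10 had ranges at 3 and 28 months that did not overlap, as did 0.246% of all genes. No test sets these shares apart from the background. Each called change from 3 to 28 months had the same direction in 3 of 3 preps, where 4 to 7 mice per age gave 1 call for Slc2a1 and 0 for Pecam1, Vwf and Kdr.

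Genes of the same pathways were counted from lists. Over all genes tested in the brain, 28.3% were called from 3 to 28 months, 16.3% higher and 12% lower. The lists were chosen with earlier results of these data known, and no test sets their shares apart from that background. Of 20 general endothelial genes, 3 were higher and 4 lower at 28 months with a median change of 0.04. Ecscr, an endothelial surface protein, rose by 0.45 ± 0.12 (SE, log2, adjusted p = 0.00199) and Erg, an ETS factor, by 0.26 ± 0.08 (adjusted p = 0.0142). Tek, the receptor of angiopoietins, changed by -0.43 ± 0.10 (adjusted p = 0.000439) and the transcription factor Sox7 by -0.53 ± 0.10 (adjusted p = 5.9e-05). Of 28 further genes of brain endothelium, 2 were higher and 9 lower, with a median of -0.14. The higher ones were the surface proteins Ly6a (0.56, adjusted p = 0.00129) and Ly6c1 (0.39, adjusted p = 0.000475). The largest falls called were those of the amino acid carrier Slc38a5 (-0.63 ± 0.15, adjusted p = 0.000618) and the membrane protein Itm2a (-0.44 ± 0.06, adjusted p = 6.38e-08), the latter from a mean of 51.4 to 37.7 CPM.

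Of 14 genes of the Wnt signal that maintains the barrier, 0 were higher and 5 lower at 28 months, with a median change of -0.14, against 16.3% and 12% of all genes. They included the transcription factor Lef1 (-0.30, adjusted p = 0.0371) and Apcdd1 (-0.26, adjusted p = 0.00325), both known targets of that signal. Of 12 Notch and arterial genes 1 was higher (the kinase Bmx, 0.50, adjusted p = 0.00446) and 1 lower (the ligand Efnb2, -0.26, adjusted p = 0.0214). Of 5 genes of caveolae, fenestrae and vesicles 2 were higher and 0 lower. Plvap, the diaphragm protein of fenestrae that barrier endothelium normally lacks, rose by 0.71 ± 0.11 (adjusted p = 1.14e-06), from 6.97 ± 1.61 CPM (SD, n = 15) to 11.4 ± 3.80 CPM (n = 18), and Cavin2, a caveolar coat protein, by 0.25 (adjusted p = 0.0162). Of 9 genes of activation and leukocyte adhesion 6 were tested, 2 were higher and 1 lower. Icam1, the adhesion receptor for leukocytes, rose by 0.86 ± 0.14 (adjusted p = 1.42e-06) and Ackr1, a chemokine receptor of venules, by 0.19 (adjusted p = 0.0148), while Thbd, the anticoagulant thrombomodulin, changed by -0.81 ± 0.15 (adjusted p = 1.35e-05). Without the 2 brains least like the others, the counts called were 12 of 28 brain endothelial genes, 4 of 11 junction genes and 7 of 14 Wnt genes, against 11, 3 and 5 with them. Several of these counts depended on the clock gene score. With it in the model, 4 brain endothelial genes were higher and 3 lower, 1 junction gene was lower, and 1 Wnt gene was higher and 2 lower. Of the Notch and arterial genes 1 was then higher and 0 lower, and of the vesicle genes 1 higher and 0 lower. The shares of all genes given above belong to the fit without the score.

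Markers of other cells in the brain gave the following values, beside 28.3% of all genes called. Red cell genes (5 genes, 3 higher and 0 lower) summed to a median of 75.3 CPM (29.9 to 234) at 3 months and 129 CPM (34.4 to 725) at 28 months, and leukocyte genes (5 genes, 4 tested, 2 higher) to 14.7 CPM (11.9 to 16.3) and 18.9 CPM (14.3 to 30.3). Microglia genes (8 genes, 5 higher) summed to 241 CPM (219.6 to 267) and 271 CPM (230.0 to 403). Astrocyte genes (7 genes, 2 higher and 2 lower) gave medians of 4521 and 4827 CPM, with Gfap at 0.75 and the endfoot water channel Aqp4 at -0.46 on the log2 scale. Pericyte genes (10 genes, 0 called) gave medians of 295.8 CPM (273 to 345) and 299.6 CPM (264 to 336), and general endothelial genes 284 CPM (257 to 356) and 292 CPM (239.9 to 335). At 24 months, when Slc2a1, Pecam1 and Vwf were also called, both medians were higher, at 335 CPM (284 to 370) for pericyte genes and 317 CPM (250 to 398) for general endothelial genes. None of these lists had a marker at 0 in every library of 3 or of 28 months. The part of these cells in the changes of the members was not tested.

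**Figure D2:**
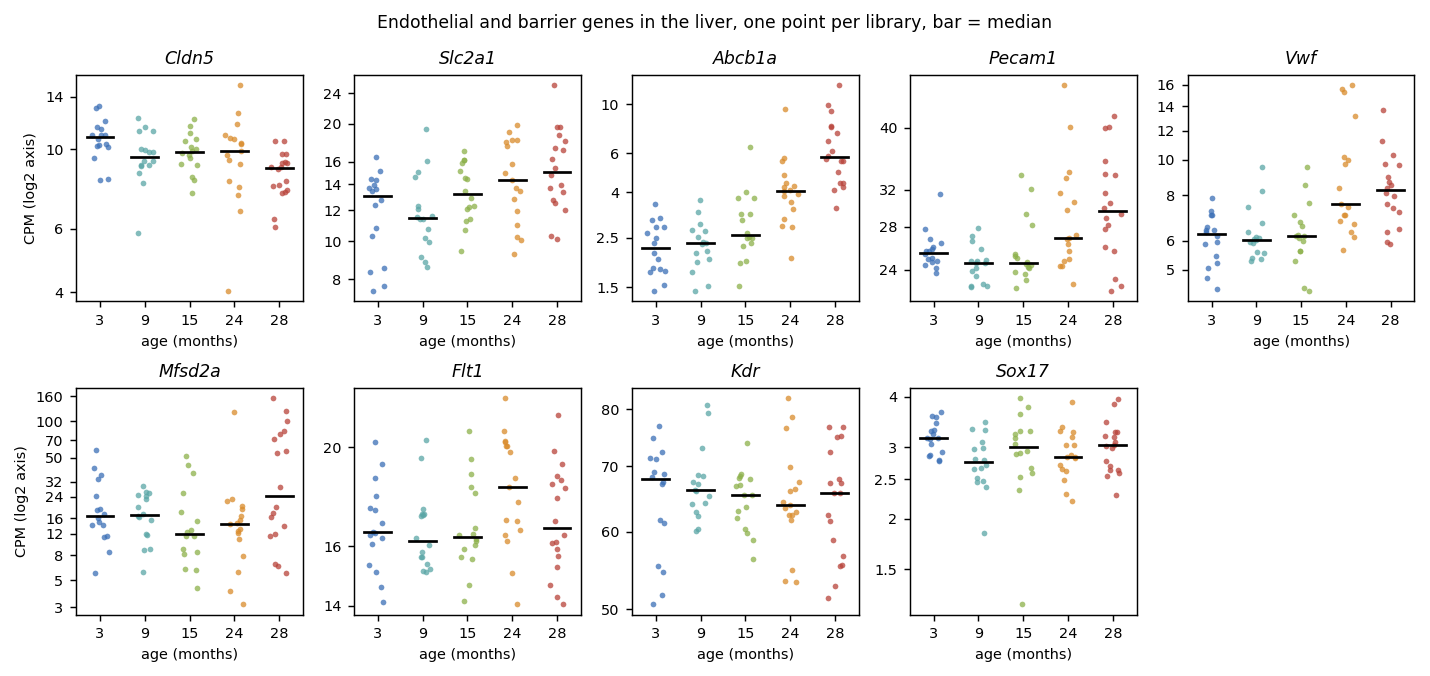
Levels of the 9 genes tested in the liver, in CPM on a log2 axis, by age in months, with 1 point per mouse and the median of each age as a bar. Abcb1a climbs from a median of 2.26 CPM at 3 months to 5.77 CPM at 28 months, and Mfsd2a spreads from 5.75 to 154 CPM at 28 months.

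In the liver the largest change among the members was that of Abcb1a. It ran from 1.44 to 3.56 CPM with a median of 2.26 at 3 months, 1.45 to 3.68 CPM with a median of 2.36 at 9 months and 1.51 to 6.39 CPM with a median of 2.56 at 15 months. It then ran from 2.03 to 9.53 CPM with a median of 4.08 at 24 months and 3.42 to 12.2 CPM with a median of 5.77 at 28 months, when 17 of 18 livers lay above the highest 3-month liver, as did 12 of 17 at 24 months. The change from 3 months was 0.88 ± 0.16 (SE, log2, adjusted p = 7.77e-06) at 24 months and 1.46 ± 0.16 (2.76-fold, adjusted p = 4.1e-12) at 28 months. Abcb1a was called also from 15 to 24 months (0.52, adjusted p = 0.00855) and from 24 to 28 months (0.59 ± 0.15, adjusted p = 0.00469). The change from 24 to 28 months was 0.30 and did not pass with the clock gene score (adjusted p = 0.400). The rise from 3 to 28 months was called in each of the 3 preps and in each of 11 alternatives, with changes between 1.13 and 1.47. The highest 28-month liver was mouse 15, and with single livers left out the change lay between 1.39 and 1.52. The paralogue Abcb1b had medians of 1.195 and 1.60 CPM and a change of 0.26 (adjusted p = 0.117). It passed in 2 of 11 alternatives, at 0.52 with voom (adjusted p = 0.00238) and 0.47 with the clock gene score (adjusted p = 0.0254), and without the 3-month mouse 12 or 16 (adjusted p down to 0.0243). At 28 months 61.9% of the 15579 liver genes tested were called, 31.9% higher and 30% lower.

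Mfsd2a varied widely among livers of 1 age. It ran from 5.73 to 58.5 CPM with a median of 16.8 at 3 months, 5.88 to 29.5 CPM with a median of 17.0 at 9 months, 4.31 to 51.5 CPM with a median of 11.9 at 15 months and 3.17 to 119.7 CPM with a median of 14.5 at 24 months. At 28 months it ran from 5.75 to 154 CPM with a median of 24.6, with 6 of 18 livers above the highest 3-month liver. The change from 3 to 28 months was 1.19 ± 0.39 (SE, log2, 2.28-fold, adjusted p = 0.00591), and that from 24 to 28 months 1.37 ± 0.38 (adjusted p = 0.00819). The highest liver at 28 months was mouse 15, the mouse whose brain library stood apart, and without it the mean went from 47.7 ± 44.8 to 41.4 ± 37.2 CPM (SD, n = 17). By prep the change was 0.25, 0.97 and 1.94, called in the third alone. It was 0.73 with voom, which did not pass (adjusted p = 0.0560), and -0.44 ± 0.42 (SE, log2, adjusted p = 0.383) once the clock gene score was in the model. With that score the change from 24 to 28 months was 0.17 (adjusted p = 0.846).

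The other called members of the liver changed less. Cldn5 ran from 8.18 to 13.1 CPM with a median of 10.8 at 3 months and 6.08 to 10.5 CPM with a median of 8.86 at 28 months, when 8 of 18 livers lay below the lowest 3-month liver and 0 above the 3-month median. Its change was -0.32 ± 0.09 (SE, log2, 0.800-fold, adjusted p = 0.00134), and -0.22 with the clock gene score, which did not pass (adjusted p = 0.101). Vwf ran from 4.44 to 7.87 CPM with a median of 6.26 at 3 months and 5.89 to 13.7 CPM with a median of 8.25 at 28 months, with 11 of 18 livers above the highest 3-month liver and a change of 0.47 ± 0.12 (adjusted p = 0.000479). Slc2a1 ran from 7.46 to 16.5 CPM with a median of 13.1 and 10.1 to 25.2 CPM with a median of 15.1, with 7 of 18 above and a change of 0.36 ± 0.11 (adjusted p = 0.00373). Pecam1 ran from 23.7 to 31.6 CPM with a median of 25.5 and 22.2 to 41.7 CPM with a median of 29.7, with 7 of 18 above and a change of 0.25 ± 0.07 (adjusted p = 0.00196). Cldn5 thus fell and the other 3 of these rose, and for each of the 4 the ranges at 3 and 28 months overlapped. Flt1, Kdr and Sox17 were not called: their medians went from 16.5 to 16.7, from 67.8 to 65.7 and from 3.17 to 3.04 CPM, with adjusted p of 0.634, 0.931 and 0.458.

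Over the age pairs, 6 of 9 tested members were called from 3 to 28 months in the liver, 5 higher and 1 lower, against the 61.9% of all genes. From 3 to 24 months 4 of 9 were called, all higher (Abcb1a, Vwf, Slc2a1 and Pecam1), against 49% of all genes, 25% higher. From 15 to 24 months 3 of 9 were called (Abcb1a, Vwf and Pecam1, against 36%) and from 24 to 28 months 2 of 9 (Abcb1a and Mfsd2a, against 15.3%). Slc2a1 from 3 to 24 months passed in 6 of 11 alternatives (adjusted p up to 0.296), and Pecam1 from 15 to 24 months in 7 of 11 (adjusted p up to 0.206). No member was called from 3 to 9, 3 to 15 or 9 to 15 months with edgeR, where 4.69%, 7.32% and 0.0514% of all genes were. With the ages tested together 6 of 9 were called against 71.5%. The shares called in either direction lay close to those of all genes. From 3 to 24 and from 3 to 28 months the shares called higher lay above those of all genes. No test sets these shares apart from the background, and nothing particular to the members is read from them. The median change of the 9 from 3 to 28 months was 0.25, against 0.01 over all genes. Of the 211 liver genes (1.35%) with ranges at 3 and 28 months that did not overlap, none was a member.

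In the liver most listed genes of endothelial activation and all listed leukocyte markers were higher at 28 months, beside 61.9% of all genes called, 31.9% higher and 30% lower. Of 7 tested genes of activation and leukocyte adhesion 6 were higher and 0 lower, with a median change of 1.13. Esm1 (endocan) rose by 2.14 ± 0.34 (SE, log2, adjusted p = 8.91e-08) and Procr, the endothelial protein C receptor, by 1.98 ± 0.33 (adjusted p = 3.22e-07). Leukocyte markers (5 genes, 5 higher) summed to a median of 20.7 CPM (17.3 to 100.1) at 3 months and 69.6 CPM (28.9 to 274) at 28 months, and platelet markers (5 genes, 3 tested, 3 higher) to 4.42 CPM (3.43 to 5.82) and 7.19 CPM (5.08 to 47.2). Stellate cell markers (5 genes, 4 higher) summed to 238 CPM (186 to 280.3) and 294 CPM (252 to 342). Markers of the sinusoid endothelium (10 genes, 1 higher and 4 lower) summed to 565 CPM (460.5 to 606) and 509 CPM (426 to 698). None of these lists had a marker at 0 in every library of 3 or of 28 months. Of the 5 platelet markers 4 had a median under 1 CPM at 3 months and 3 at 28 months. Of the 5 leukocyte markers 2 did at 3 months and 0 at 28 months. The part of these cells in the members' changes was not tested.

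Of 20 general endothelial genes in the liver 3 were higher and 5 lower (median 0.01, against 31.9% higher and 30% lower over all genes), with Cd34 at 0.89 ± 0.17 (SE, log2, adjusted p = 8.6e-06) and Fli1 at 0.86 ± 0.14 (adjusted p = 3.28e-07), and with the receptors Tie1 and Tek both at -0.28. Of 23 tested genes of the brain endothelial list 13 were higher and 3 lower (median 0.44), and several of these carriers are known to be made by hepatocytes too. Slco1a4, an organic anion carrier, rose by 1.69 ± 0.21 (adjusted p = 1.84e-10), and the efflux pump Abcg2 changed by -1.14 ± 0.09 (adjusted p = 1.28e-17). Slc19a3, a thiamine carrier, had 3 counts or fewer in 15 of 16 livers at 3 months and in 1 of 18 at 28 months, so no fold is given. Of 11 junction genes 1 was higher and 4 lower (among them Cgn, cingulin, -0.76). Of 9 VEGF and angiopoietin genes 2 were higher (Angpt1 0.59 and Angpt2 0.57) and 2 lower (Nrp1 -0.51 and Vegfb -0.28). Of 10 Wnt genes 3 were higher (among them Lef1, 0.78) and 2 lower (Ctnnb1 -0.18 and Lrp5 -0.17). The count was 3 without the 2 livers least like the others. Without single livers it was 3 to 6, and the 3-month mouse 15 moved it most. Mean levels of Lef1 were low, at 0.239 CPM at 3 months and 0.401 CPM at 28 months. Of 11 Notch and arterial genes 4 were higher (Hey1 1.496 and Jag2 0.98 among them) and 1 lower (Jag1 -0.33). Jag2 was low too, with means of 0.180 CPM at 3 months and 0.371 CPM at 28 months. Of 5 vesicle genes Plvap was higher (0.48), and Cav1 (-0.67) and Cavin2 (-0.39) were lower. Once the clock gene score was in the model, 3 junction genes were called (0 higher), 3 Wnt genes (1 higher) and 3 Notch and arterial genes (3 higher). Over all genes 8194 were called in that model, against 9639 without the score.

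**Figure D3:**
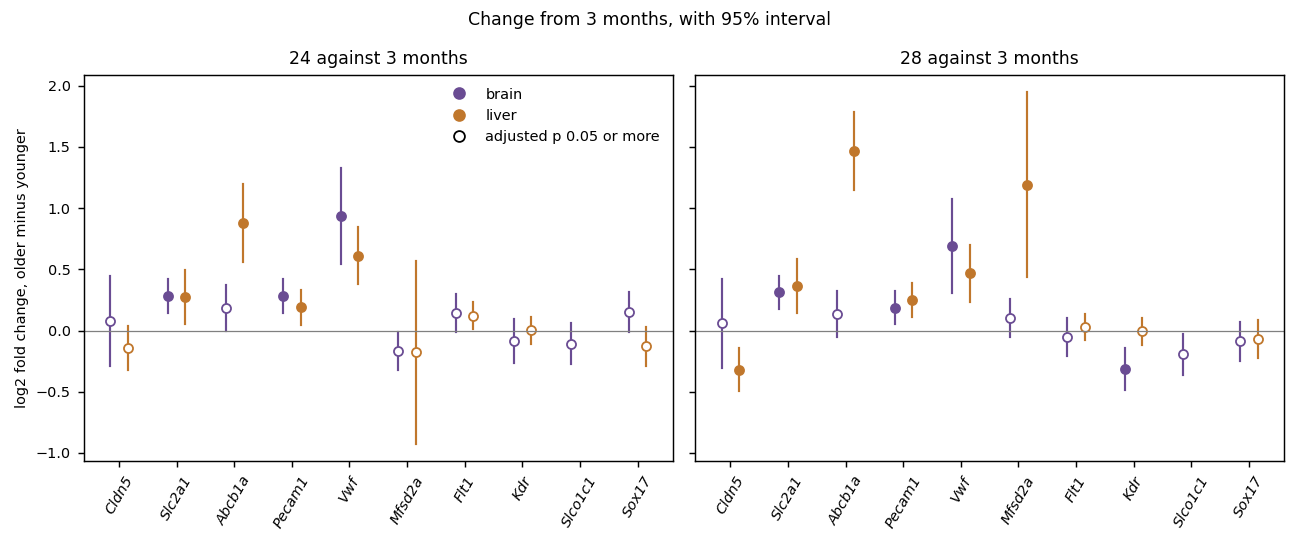
Log2 fold changes from 3 to 24 months (left) and from 3 to 28 months (right) of the members in brain and liver, with bars of the 95% interval and open points for an adjusted p of 0.05 or more. At 28 months Abcb1a and Mfsd2a lie far higher in the liver than in the brain, Kdr lies lower in the brain, and the bars of Slc2a1, Pecam1 and Vwf overlap between the tissues.

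Whether a member changed differently in the 2 tissues was tested directly as a tissue by age term in the fit over both tissues, where 49.2% of 14035 genes passed for 28 against 3 months. The term was called for 3 of 9 members. Abcb1a changed by -1.37 ± 0.19 (SE, log2, adjusted p = 3.9e-10) in the brain relative to the liver, Mfsd2a by -1.13 ± 0.39 (adjusted p = 0.0120) and Kdr by -0.34 ± 0.11 (adjusted p = 0.00488). With the mouse as a block, Abcb1a (-1.35, adjusted p = 6.36e-08) and Kdr (-0.36, adjusted p = 0.00627) were called and Mfsd2a was not (-0.62 ± 0.37, adjusted p = 0.160). The 6 other members did not pass: Cldn5 had a difference of 0.33 ± 0.20 (adjusted p = 0.171) with the brain of the 28-month mouse 15 and -0.05 ± 0.14 (adjusted p = 0.802) without it, Vwf 0.18, Slc2a1 -0.09, Pecam1 -0.10, Flt1 -0.12 and Sox17 -0.06. The rise of Slc2a1, Pecam1 and Vwf was thus called in both tissues with no called difference between them, which does not show that the changes were equal. Over all 5 ages together the term was called for the same 3 genes (Mfsd2a adjusted p = 0.0204, Kdr adjusted p = 0.0208), against 52.9% of all genes. There Mfsd2a was lost with the mouse as a block (adjusted p = 0.221) and Kdr with DESeq2's size factors in place of TMM (adjusted p = 0.0512).

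**Figure D4:**
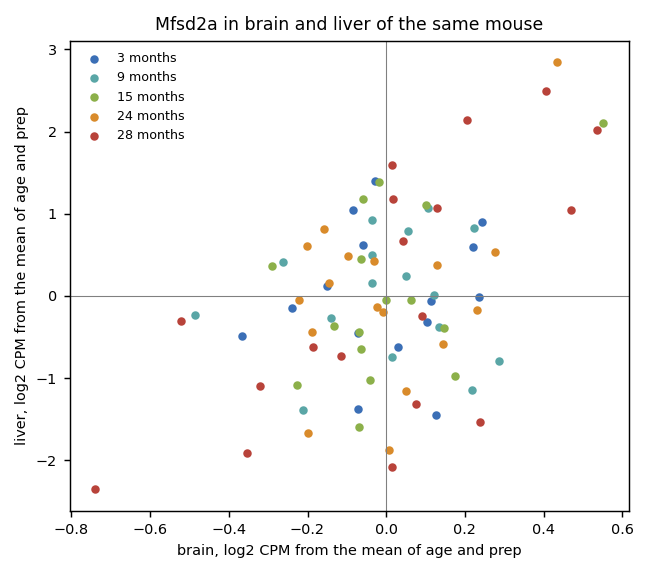
Mfsd2a in the brain and the liver of the same 82 mice, as log2 CPM with the means of age and prep removed, 1 point per mouse. The horizontal axis is the brain, the vertical axis the liver and the colours the ages; mice with more Mfsd2a in the liver tend to have more in the brain (r = 0.454).

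Levels in the brain and the liver of 1 mouse were compared over the 82 mice with both, as log2 CPM less its mean at that age and in that prep, for the 9 members tested in both tissues (9 relations, permutation within age, 100000 permutations, two-sided). Mfsd2a had r = 0.454 (permutation p = 0.00018, adjusted p = 0.00162) and Spearman's rho = 0.315 (p = 0.00636, adjusted p = 0.0572). Without the 2 mice farthest from the median in the brain r was 0.364 (adjusted p = 0.0310). Without mouse 15 of 28 months, whose brain library stood apart, r was 0.425 (adjusted p = 0.00351) over 81 mice, and a further removal of the 2 farthest gave 0.322 (adjusted p = 0.0834), so the relation rests in part on the farthest mice. The other 8 members ran from r = -0.136 for Abcb1a to r = 0.319 for Vwf (adjusted p = 0.0981), and none passed. Without mouse 15 of 28 months Abcb1a had r = 0.018, and the lowest was Kdr at -0.066.

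**Figure D5:**
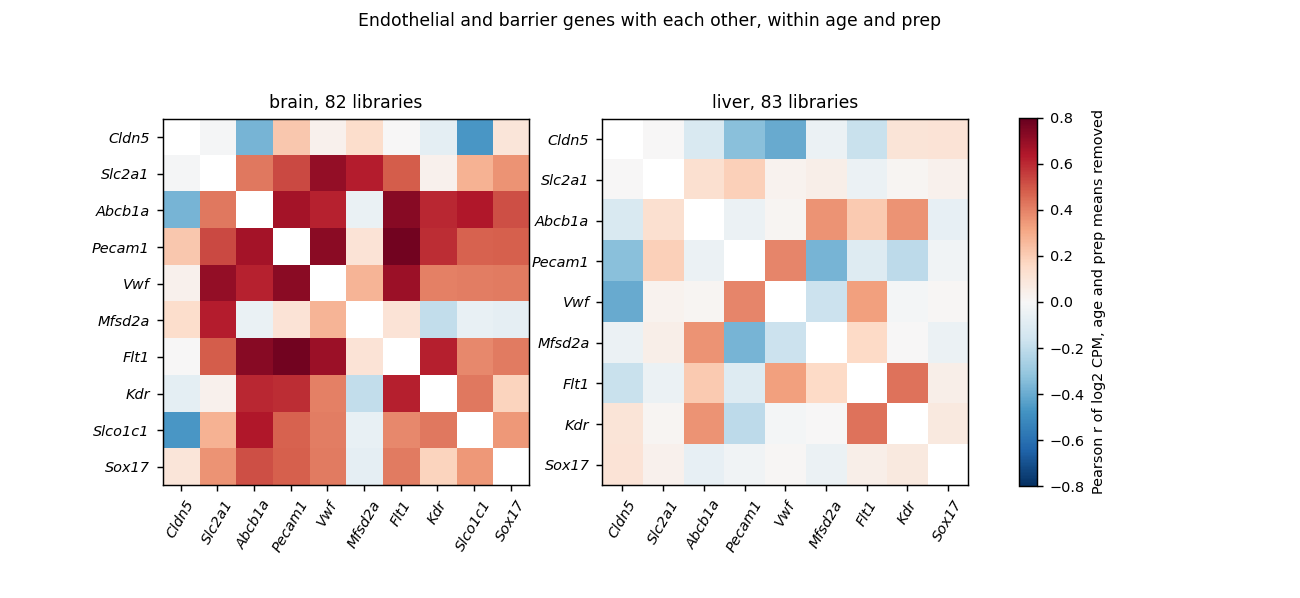
Pearson correlations between members across libraries within each tissue, with the means of age and prep removed, over 82 brains and 83 livers, from blue (negative) to red (positive). In the brain 37 of 45 pairs are above 0, with the pale or blue cells mostly those of Cldn5 and Mfsd2a, and in the liver 21 of 36 are.

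Within a tissue, the levels of the members correlated mostly positively from mouse to mouse in the brain and lay around 0 in the liver. With age and prep means removed, the 45 pairs of the 10 genes in the brain had a median r of 0.401 over 82 libraries, and 37 were above 0. The highest were Pecam1 with Flt1 (0.775), Abcb1a with Flt1 (0.726), Pecam1 with Vwf (0.722) and Slc2a1 with Vwf (0.701), and the lowest was Cldn5 with Slco1c1 (-0.466). Without the 28-month mouse 15 the median was 0.395, 43 of 45 were above 0, Abcb1a with Flt1 reached 0.859 and the lowest was Mfsd2a with Kdr (-0.157). In the liver the 36 pairs of 9 genes had a median of 0.011 over 83 libraries, 21 above 0, from -0.404 for Cldn5 with Vwf to 0.437 for Flt1 with Kdr, and Abcb1a with Mfsd2a had 0.362. The values of a pair share the library and its depth, and these correlations are given as a description.

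The genes most like the members, by the correlation with the mean z-score of the tested members over all libraries of a tissue (82 brains, 83 livers), included several vessel genes in the brain. The 10 highest of the 18711 brain genes were led by Sema3g (0.856, an arterial semaphorin), Robo4 (0.800), Mmrn2 (0.791), Podxl (0.780) and Nos3 (0.777, endothelial nitric oxide synthase), and also held Myh11 (0.770, smooth muscle myosin), Fn1, Fgd5, Dock6 and Gata2 (0.718). In the liver the values were lower, from Zfp395 (0.550) and Akr1b7 (0.547) to Nipal1 (0.501), and Stab2, a sinusoid receptor, had 0.536.

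A clock score was computed for each library. The score, 9 clock genes minus 3 that peak in the opposite phase (mean z-score), had brain medians of -0.33 (-0.67 to 0.04) at 3 months and 0.77 (-0.68 to 4.61) at 28 months and liver medians of -1.18 and 1.47, and these ranges overlapped. Its difference between ages was not tested, and the highest brain was the 28-month mouse 15. Within age and prep the score correlated with Mfsd2a in the brain (r = 0.436, and 0.411 without that mouse) and in the liver (r = 0.500). For Cldn5 in the brain r was 0.597, and 0.204 without that mouse. With the score as a covariate the calls from 3 to 28 months of liver Mfsd2a, liver Cldn5 and brain Kdr did not pass, as given above. Liver Abcb1a stayed called from 3 to 28 months at 1.13 (edgeR, adjusted p = 1.69e-06) but not from 24 to 28 months, and brain Abcb1a was called at 0.29, where its correlation with the score was -0.465, and -0.145 without the 28-month mouse 15. Brain Cldn5 was called at -0.58 (edgeR, adjusted p = 0.000877). All brain fits with the score include the 28-month mouse 15 (score 4.61, next highest 2.00). No fit with the score was made without that mouse, so its part in these brain values was not tested. Brain Slc2a1 (0.28) and Vwf (0.86) remained called. Hours of sampling are not given in the sources used here, and a part of the clock or of the hour in these changes cannot be told apart from age.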

How the data were processed

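Per the labels' protocols, QIAzol and chloroform were used to extract brain and liver RNA, which was made into stranded, polyadenylation-selected libraries read as pairs of 100 bases. The authors deposited 1 table of raw counts per tissue, with 55471 Ensembl identifiers, of which 55144 matched a symbol. The submitters' processing notes name cutadapt 2.8, HISAT2 2.1.0, SAMtools 1.9, featureCounts of Subread 2.0.1 and the builds GRCm38.p6 and mm10, and the handling of reads shared by paralogues is not given in the sources used here.

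The counts were tested in R 4.3.3 by edgeR 4.0.16. The function filterByExpr, grouped by age, left 18711 genes in the brain and 15579 in the liver. With TMM scaling, 1 quasi-likelihood fit per tissue had terms for age and prep. P-values were adjusted by Benjamini-Hochberg over all genes tested, with calls under 0.05. Levels are CPM of TMM-scaled libraries, log2 CPM used a prior count of 2, and a library with 3 counts or fewer was taken as at the floor. A fit over both tissues tested tissue by age. Depth ran from 5.82 M to 73.4 M counts, so low genes rest on few counts in the shallowest libraries. The scripts were tested on simulated data. Alternatives were RLE factors, a filter of 10 counts in total, DESeq2 1.42.0, limma 3.58.1 voom, score covariates, blocks, single preps and libraries left out.

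Brain and liver of the same age and number came from 1 mouse per the labels; their residuals correlated at a mean of 0.0494 over 82 mice, against -0.00142 between different mice. The 10 genes and all gene lists were chosen with earlier results of these data known. Named pathway genes were up to 2 highest and 2 lowest called changes per list and tissue, not all of which are reported here.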

Additional observations from a re-analysis of the deposited data

Results flagged for a closer look

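In 3 members the change from 3 to 28 months differed between the brain and the liver in a direct test of the difference (edgeR, tissue by age). The difference, brain minus liver on the log2 scale, was -1.37 for Abcb1a, which was higher at 28 months in the liver (1.46) and not called in the brain (0.14). For Mfsd2a it was -1.13, with 1.19 in the liver and 0.10 in the brain, and it did not pass with the mouse as a block (-0.62, adjusted p = 0.160). For Kdr it was -0.34, with -0.31 in the brain and -0.01 in the liver. The difference was tested for 9 members and called for these 3.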

How the results depend on the processing

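Of the values of single members under alternatives, 3285 kept their side of the threshold (sign changes of values that passed under neither setting included), 129 lost the call, 36 gained it and 6 changed sign with a call under at least 1 of the settings compared. The last were brain Cldn5 from 3 to 28 months, at -0.32 with voom, -0.34 without the shallowest brain or without the 2 least like the others and -0.58 with the clock score, with a range of -0.34 to 0.10 over single libraries left out, and liver Mfsd2a at -0.44 with the clock score. The first rests on the brain of the 28-month mouse 15, and the cause of the second was not tested.

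Counts of called members in single preps (1, 2 and 3), which hold fewer mice, were 0, 0 and 0 from 3 to 24 months in the brain (3 with all mice), 1, 0 and 0 from 3 to 28 (4 with all), 0, 0 and 0 from 15 to 24 (1 with all) and 0, 0 and 2 over all ages (5 with all). In the liver they were 0, 2 and 2 from 3 to 24 months (4 with all), 2, 1 and 3 from 3 to 28 (6 with all), 0, 0 and 1 from 15 to 24 (3 with all), 0, 0 and 1 from 24 to 28 (2 with all) and 3, 1 and 3 over all ages (6 with all). With single libraries left out, 3 to 5 were called in the brain and 6 to 6 in the liver at 28 months. Voom called 7 in the brain at 28 months and 2 in the liver at 24 months. From 15 to 24 months in the brain 2 were called with DESeq2, with voom or without the shallowest brain, and 0 with the endothelial score, with the replicate block, with the 2 ages alone, without the 4 brains highest in choroid plexus markers or without the 24-month mouse 8. From 24 to 28 months 1 brain member was called with DESeq2 (Mfsd2a), voom (Mfsd2a) or without the shallowest brain (Cldn5), and 2 with the clock score (Cldn5 and Sox17). In the liver 0 were called there with the clock score and 1 with the 2 ages alone. The cause of these moves was not tested.

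With the replicate number as a block, Vwf from 15 to 24 months in the brain was 0.74 (adjusted p = 0.0762), brain Pecam1 from 3 to 28 months 0.18 (adjusted p = 0.0668), liver Mfsd2a 0.71 (adjusted p = 0.124) and liver Slc2a1 from 3 to 24 months 0.25 (adjusted p = 0.0694). The numbers pair no mice across ages: residuals of the same number correlated at a mean of 0.0135 in brain and -0.00653 in liver, against 0.00307 and 0.00241 for different numbers. Liver Slc2a1 from 3 to 24 months was also lost with the 10-count filter (adjusted p = 0.0513), voom (0.14, adjusted p = 0.296), the 2 ages alone (adjusted p = 0.0597) and without the 2 livers least like the others (adjusted p = 0.0819). Liver Pecam1 from 15 to 24 months was lost with the same settings, at adjusted p of 0.0607, 0.206, 0.0734 and 0.166, and from 3 to 24 months with voom (adjusted p = 0.318) and without the 2 livers least like the others (adjusted p = 0.103).

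Over all genes 82 counts moved by more than 1.5 times, among them counts in single preps, with voom and with the 2 ages alone. In the brain they went from 59 to 494 (3 to 9 months), 163 to 715 (3 to 15), 1882 to 4851 (3 to 24), 0 to 97 (9 to 15), 137 to 842 (15 to 24) and 3853 to 7984 (all ages) with voom, and from 5291 to 3059 (3 to 28) with the 2 ages alone. From 24 to 28 months 204 became 2 with the 2 ages alone and 3221 with the clock score. In the liver 731 became 342 (3 to 9) and 1140 became 708 (3 to 15) with the 2 ages alone, 8 became 19 (9 to 15) with voom, and from 24 to 28 months 2385 became 220 with the clock score and 4036 with voom. Brain against liver went from 12652 to 19791 with the 10-count filter. The analyses without libraries that stood apart, and without the 24-month mouse 8, were added after seeing the data. Slco1c1, with 3 counts or fewer in 70 of 83 livers, allowed no change to be detected there at this depth.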

Other observations

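Genes of the cells around the endothelium gave the following counts. In the brain 0 of 10 pericyte genes and 0 of 6 tested smooth muscle genes were called from 3 to 28 months, while 3 of 9 genes of fibroblasts and meninges were lower and 0 higher (edgeR, 28.3% of all genes called). The collagen genes Col1a2 (-0.78 ± 0.16, SE, log2, adjusted p = 0.000152) and Col1a1 (-0.65 ± 0.13, adjusted p = 8.96e-05) were among them, and the 28-month mouse 15 had the lowest sum of this list (66.3 CPM, against 107.7 to 250.04 CPM in the other brains). In the liver 3 of 7 tested pericyte genes were higher, among them the channel subunits Abcc9 (0.70 ± 0.08, adjusted p = 2.61e-12) and Kcnj8 (0.81 ± 0.12, adjusted p = 2.26e-08). Of 8 tested fibroblast genes 5 were higher and 1 lower (61.9% of all genes called), with the matrix proteoglycan Dcn at 0.81 ± 0.05 (adjusted p = 1.21e-21) and the growth factor receptor Pdgfra at 1.08 ± 0.10 (adjusted p = 2.22e-15).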
